A study of Mus musculus with 9 samples.

Results

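The genes described here are 36 genes of fatty acid uptake, lipolysis, mitochondrial oxidation and its regulation, measured by RNA sequencing in mouse tibialis anterior, a fast muscle of the front of the lower leg. They were taken by gene symbol from a list of known functions, and all 36 were found in both deposited gene tables. The list was chosen with earlier results of these data known. Shares of called genes set beside a background are therefore descriptions and no test of the set. The tables list 14596 and 14675 protein-coding genes, of which 14300 are in both. All 36 genes passed the filter on low values (a mean of at least 10 normalised counts) in each of the 3 comparisons made. The muscles were those of male C57BL/6J mice, with 3 groups and 3 libraries in each. Control mice are named sham in the tables' columns. ORX mice were orchiectomised (the testes, the main source of androgen, removed). ORX+DHT mice were orchiectomised and given dihydrotestosterone (DHT), a potent androgen that is not converted to oestrogen. All samples were taken 4 weeks after treatment, and the dose, route and age are not given in the sources used here. The labels call the samples biological replicates without saying that each was a separate animal, so p-values measure the spread between these samples.

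Muscle takes fatty acids from circulating lipoproteins and albumin, binds them in the cytosol and activates them to acyl-CoA. Acyl-CoA is stored in lipid droplets or enters mitochondria through the carnitine shuttle, where each round of beta-oxidation shortens the chain and hands electrons to the respiratory chain. Receptors of the PPAR family, which bind fatty acids, and the coactivator PGC-1alpha drive many of these genes, and pyruvate dehydrogenase kinases turn fuel use from glucose towards fat.

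The libraries held 1340209 to 1682235 reads over the listed genes, and the 36 genes took 0.746 to 1.03% of them. Fast fibre markers fixed for the tissue had a high summed level (289026 to 393505 normalised counts per library), and 8 slow fibre markers summed to 199 to 371. Of the 11 fast fibre markers Tnnc2 was near 0, at 1.11 to 4.91, and fell below the filter. Control 1 stood apart from the other 8 libraries. Its log2 values correlated with those of Control 2 and Control 3 at Pearson's r of 0.928 and 0.929 across genes, against 0.966 to 0.973 for the other 7 pairs within a group. Of the 36 genes, 19 had their highest value of all 9 libraries in Control 1, and their median ratio to the mean of Control 2 and Control 3 was 1.26, against 0.996 over all genes. All 14 genes with transcripts under 2000 bases were highest of the controls in Control 1, with a median ratio of 1.53. Among the 22 longer ones 9 were, with a median ratio of 1.07. The ratio over all genes was not split by transcript length. Genes outside the 36 also stood apart in Control 1, in both directions. Cox4i1 had 2555 there against 1253 and 1240 in Control 2 and Control 3, and Tnni2 23692 against 11841 and 11331. Atp2a1 had 36261 against 50377 and 48557, and Myh4 79195 against 100467 and 98074. Values without that library are given beside the counts of genes called in the comparisons with Control and beside several single genes.

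Per kilobase of transcript and averaged over the 9 libraries, levels of the 36 genes spanned a 135-fold range, and 22 genes lay at 100 normalised counts per kilobase or above. The kinases Pdk4 and Pdk2 had the highest levels, at 474 and 424 normalised counts per kilobase. The cytosolic fatty acid binding protein Fabp3 followed at 329 and the long-chain dehydrogenase Acadl at 322, but that order rests on the controls: Fabp3 had 428, 283 and 275 in Control, ORX and ORX+DHT, and Acadl 349, 292 and 324. In Control alone Fabp3 was level with Pdk4 (428) and above Pdk2 (399). The Fabp3 mean there rests on Control 1, with 519 normalised counts against 243 and 294 in Control 2 and Control 3. Next came the electron carrier subunit Etfa at 282, the medium-chain dehydrogenase Acadm at 280 and the triglyceride lipase Pnpla2 at 268. The 7 genes under 25 were the receptors Ppara (3.51) and Ppard (20.9), the carnitine palmitoyltransferase Cpt1b (4.14), the hormone-sensitive lipase Lipe (9.63), the thioesterase Acot2 (10.2), the coactivator Ppargc1a (12.9) and the droplet coat protein Plin5 (14.1). Ppara and Cpt1b had the fewest reads, with only 2 and 7 in their lowest library. Whether the gene overlap described below lowers the Cpt1b count was not tested.

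**Figure D1:**
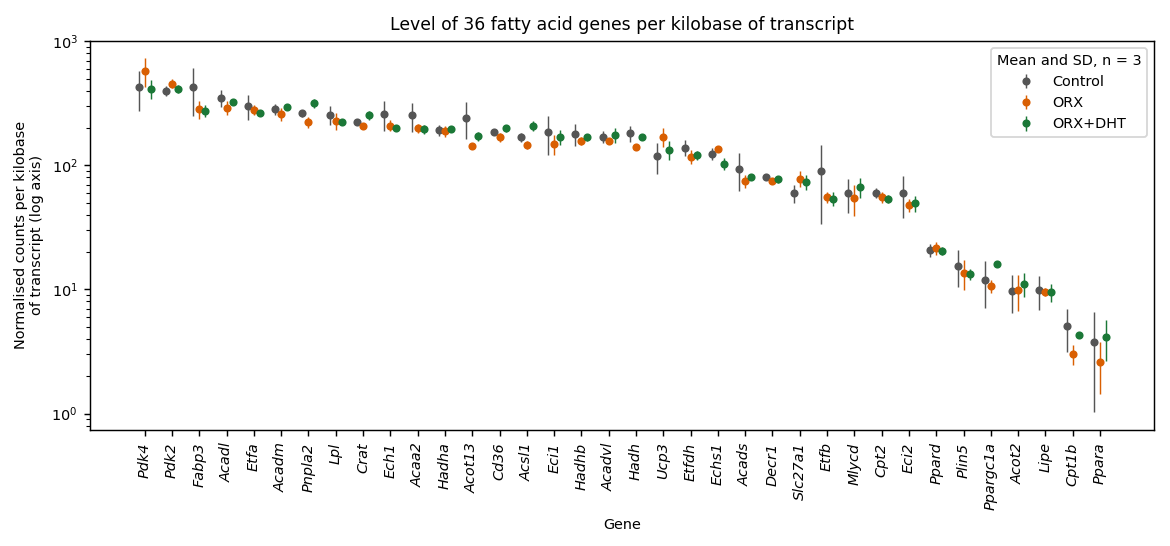
Level of each of the 36 genes in normalised counts per kilobase of transcript (log axis), with points for the mean of 3 libraries in Control, ORX and ORX+DHT and bars for the SD. Levels run from Pdk4 at 474 to Ppara at 3.51 (mean of 9 libraries), and the SD bars of the controls are wide for many genes.

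Some levels are uncertain because of overlapping gene models in GENCODE M21. Of the Cpt1b transcript (chr15:89416405-89425863, GRCm38, minus strand), 94.8% of the bases also lie in exons of Gm44502 (chr15:89416405-89429696, same strand), which was not analysed here. For Etfb 69.1% lie in exons of Gm45233 on the same strand, also not analysed here. On the opposite strand, exons of Dvl2 cover 45.0% of Acadvl, a noncoding gene 23.8% of Lipe, Zcchc17 19.6% of Fabp3 and a noncoding gene 10.8% of Eci2. Whether the counting used strand is not given in the sources used here. Acot2 has a near-identical neighbour, Acot1, with which reads may be shared.

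Between ORX and ORX+DHT 4 of the 36 genes changed (11.1%, against a background of 4.08% of the 8770 genes tested). Acsl1, which activates long-chain fatty acids, Pnpla2, which releases the first fatty acid from stored triglyceride, and Ppargc1a, which encodes PGC-1alpha, rose. Echs1, the hydratase of short-chain beta-oxidation, fell. The background was 2.38% of genes for a rise and 1.7% for a fall (limma, adjusted p under 0.05 over all genes). The share of genes at an unadjusted p under 0.05 was 27.8% of the 36 (10 genes) and 14.3% of all genes. Groups did not overlap for 9 of the 36 (25%, background 19.5%), 8 of them higher in ORX+DHT (background 10.4%) and Echs1 lower (background 9.13%). The median log2 difference of the 36 was 0.06, with 22 above 0, and that of all genes was 0.01. Without ORX 3, 31 of the 36 were above 0 and their median was 0.12. The median was 0.10 without ORX+DHT 2 or without ORX+DHT 3, and 0.02 after quantile normalisation. With a minimum mean of 50 the background was 7.87% of 3962 genes, and 5 of the 31 of these genes tested were called. DESeq2 called 2 of the 36, Acsl1 and Pnpla2, and 0 were called with all 9 libraries in 1 limma fit. In whole muscle, fewer cells of a type and less RNA per cell cannot be told apart.

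**Figure D2:**
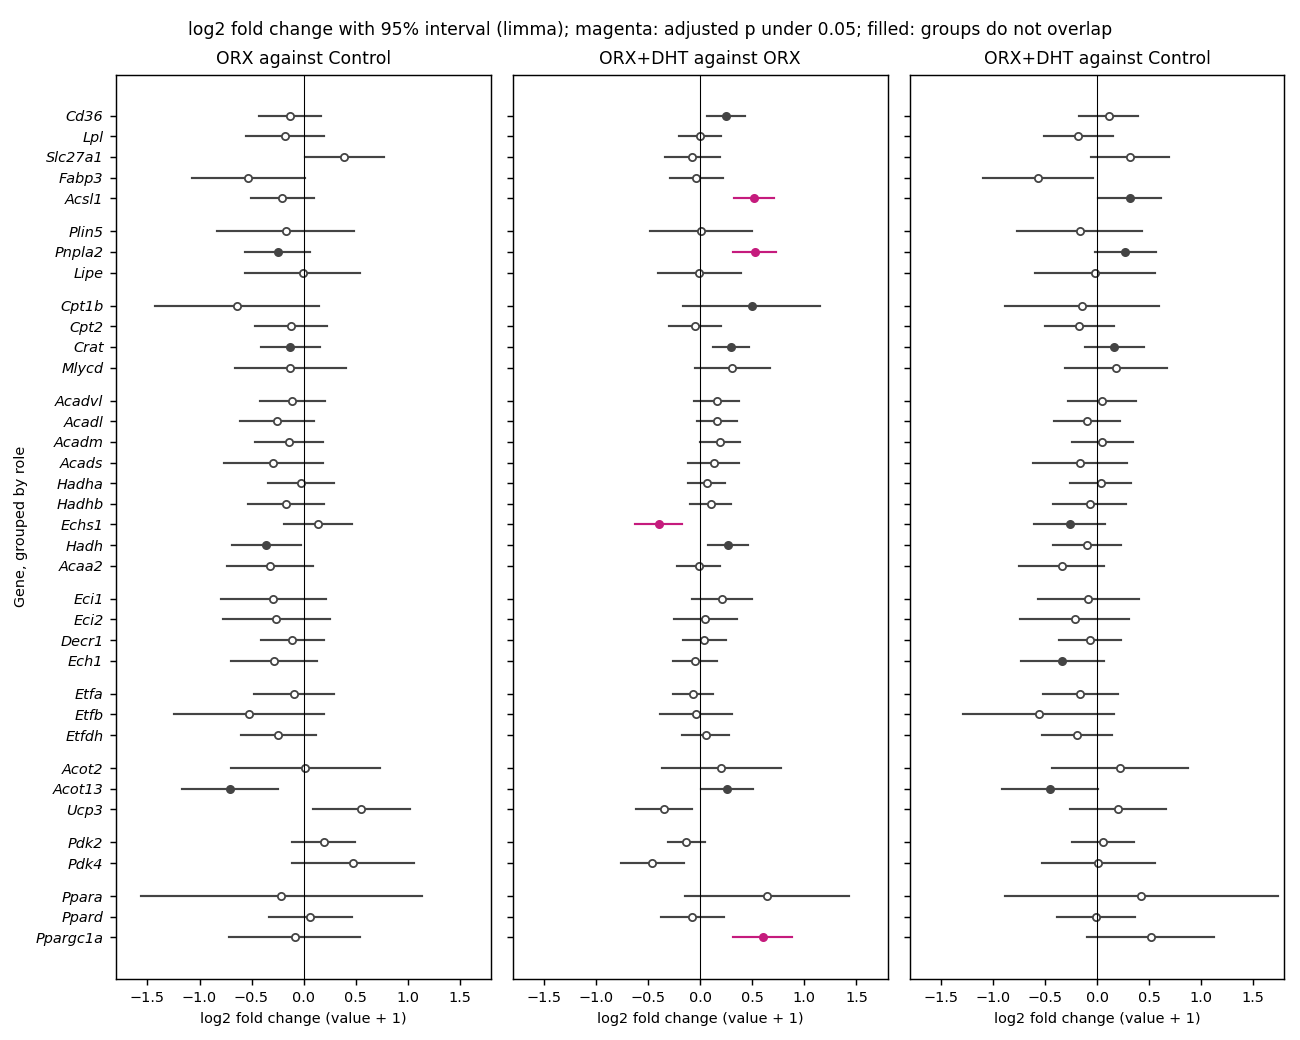
Difference of each of the 36 genes in the 3 comparisons, as log2 fold change of value + 1 with its 95% interval from limma, grouped by role. The 4 genes called at an adjusted p under 0.05 are in magenta and appear in the ORX+DHT against ORX panel, and filled points are genes whose groups do not overlap.

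In ORX against Control, 0 of the 36 genes passed the test (limma, background 0.0579% of 8631 genes), and neither edgeR nor DESeq2 called one. At an unadjusted p under 0.05 there were 4 of the 36 with limma (11.1%, background 7.21%), namely Acot13, Hadh, Slc27a1 and Ucp3, 5 with edgeR and 3 with DESeq2. The log2 difference was below 0 for 29 of the 36, with a median of -0.15 against -0.01 over all genes, and for 25 after quantile normalisation. Without Control 1 it was below 0 for 24, the median was -0.05, and 1 of the 36, Ucp3, passed. Without Control 2 the median was -0.28, and after quantile normalisation -0.06. Groups did not overlap for 4 genes (11.1%, background 14.3%), all lower in ORX (background 8.06%): Acot13, Crat, Hadh and Pnpla2. The number of called genes over the whole table was 5, and 51 without Control 1.

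In ORX+DHT against Control, 0 of the 36 passed as well (limma, background 0.0349% of 8595 genes), with 2 at an unadjusted p under 0.05, Acsl1 and Fabp3 (5.56%, background 6.48%). edgeR and DESeq2 each had 3 at that level and called none. The 36 were spread to both sides, with 15 above 0 and a median log2 difference of -0.07. The median was 0.03 without Control 1, -0.19 without Control 2, -0.01 without Control 3, -0.04 without ORX+DHT 2 and -0.01 after quantile normalisation. Groups did not overlap for 6 genes (16.7%, background 14%). Acsl1, Crat and Pnpla2 were higher in ORX+DHT (background 6.86%), and Acot13, Ech1 and Echs1 were lower (background 7.12%). The comparison with ORX and the comparison of ORX with Control share the ORX libraries, and both comparisons with Control share the control libraries.

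Uptake and activation were represented by 5 genes, of which Acsl1 passed in ORX+DHT against ORX. Acsl1 (ENSMUSG00000018796, chr8:46471037-46536051, plus strand) had 598, 655 and 714 normalised counts in Control, 580, 522 and 604 in ORX, and 863, 725 and 858 in ORX+DHT. All 3 ORX+DHT libraries lay above the other 6, while Control and ORX overlapped. Means were 656 ± 58.0, 569 ± 42.1 and 815 ± 78.2 (SD, n = 3 each). The rise from ORX to ORX+DHT was 0.52 on the log2 scale (SE 0.09, 95% interval 0.33 to 0.71, limma adjusted p = 0.00189), or 1.43-fold. Against Control the difference in ORX+DHT was 0.31 (limma adjusted p = 0.736), and 0.25 without Control 1.

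Cd36, the membrane protein that takes up long-chain fatty acids, had 608, 607 and 663 normalised counts in Control, 529, 559 and 628 in ORX, and 670, 641 and 718 in ORX+DHT. Every ORX+DHT library lay above every ORX library, but the difference of 0.24 (SE 0.09) did not pass (limma adjusted p = 0.165). With replicate number as a block Cd36 was called. Lpl, the lipase that frees fatty acids from lipoproteins at the capillary wall, had 1229, 866 and 1077 in Control, 807, 903 and 1094 in ORX, and 943, 946 and 884 in ORX+DHT. Its groups overlapped throughout, and the difference between ORX+DHT and ORX was -0.0045 (95% interval -0.21 to 0.20). Fabp3 had 519, 243 and 294 in Control, 213, 209 and 277 in ORX, and 245, 234 and 199 in ORX+DHT, so its high control mean rests on Control 1. Its log2 difference from Control was -0.53 in ORX and -0.57 in ORX+DHT, and -0.21 and -0.25 without Control 1; none of these passed. The fatty acid transporter Slc27a1 differed by 0.39 in ORX against Control (0.29 without Control 1, limma adjusted p = 0.685 with it) and by -0.08 in ORX+DHT against ORX.

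**Figure D3:**
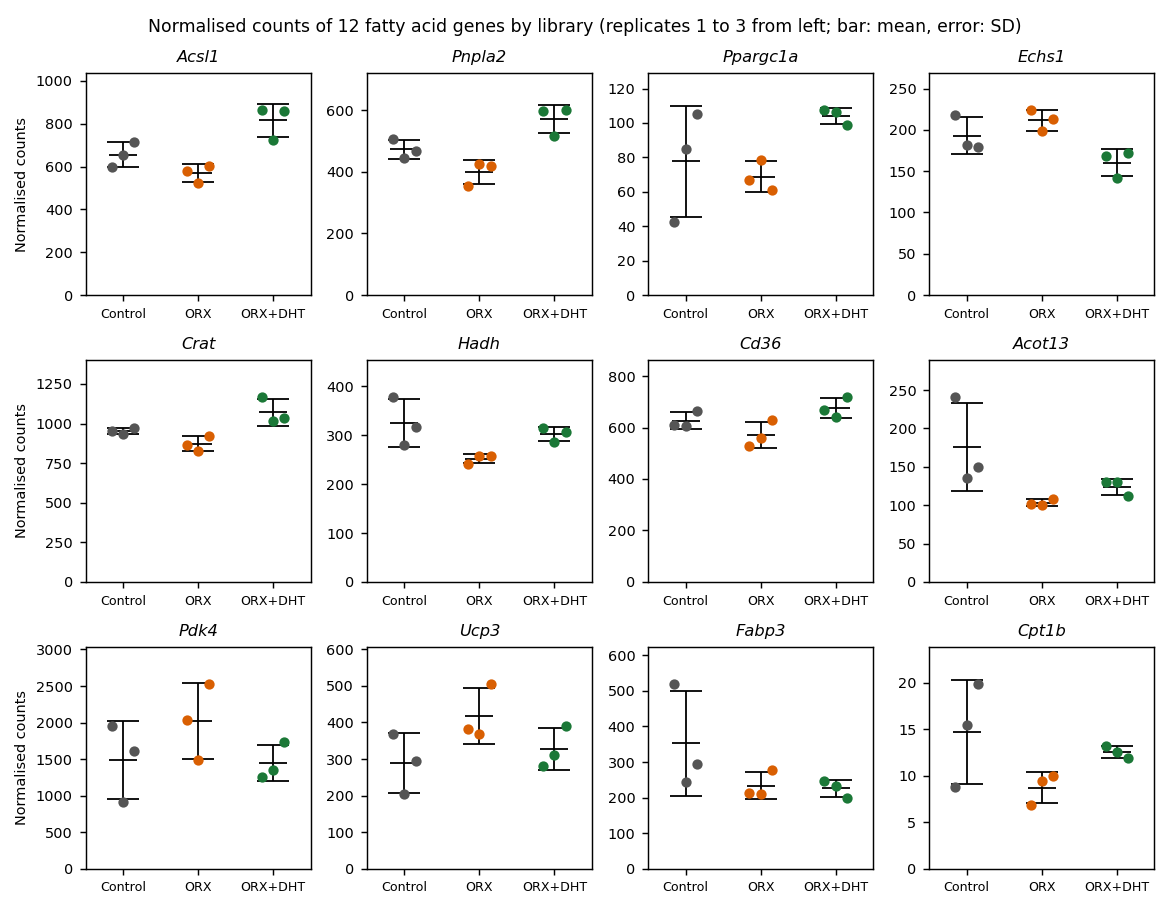
Normalised counts of 12 of the 36 genes in each library (points, replicates 1 to 3 from left), with the mean of 3 and the SD, in Control, ORX and ORX+DHT. Acsl1, Pnpla2 and Ppargc1a are higher and Echs1 lower in all ORX+DHT than in all ORX libraries, and Control 1 is far above the other controls for Fabp3 and Acot13.

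Of the 3 genes of the lipid droplet and lipolysis, Pnpla2 passed. Pnpla2 (ENSMUSG00000025509, chr7:141455198-141460743, plus strand) had 508, 446 and 467 normalised counts in Control, 353, 425 and 419 in ORX, and 598, 518 and 601 in ORX+DHT. The 3 groups did not overlap, with ORX lowest and ORX+DHT highest. Means were 474 ± 31.8, 399 ± 39.7 and 572 ± 46.9 (SD, n = 3 each). The rise with DHT was 0.52 (SE 0.10, 95% interval 0.32 to 0.72, limma adjusted p = 0.00283), or 1.43-fold. The difference of -0.25 between ORX and Control (-0.20 without Control 1) did not pass (limma adjusted p = 0.728). Plin5, which coats droplets and anchors them to mitochondria, and Lipe, which acts on diacylglycerol, differed by at most 0.01 in size between ORX+DHT and ORX, with standard errors of 0.23 and 0.19.

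In the carnitine shuttle 0 of 4 genes passed. Cpt1b, the muscle form of the outer-membrane transferase that admits long-chain acyl groups, had 8.74, 15.5 and 19.9 normalised counts in Control, 6.87, 9.38 and 9.93 in ORX, and 13.2, 12.6 and 11.9 in ORX+DHT. All ORX+DHT values lay above all ORX values, within the range of the controls. The difference of 0.49 had an interval of -0.16 to 1.15 (limma adjusted p = 0.511), and that of ORX from Control was -0.64 (SE 0.36), or -0.95 without Control 1. Crat, which exchanges acetyl groups between CoA and carnitine, had 955, 931 and 969 in Control, 865, 829 and 923 in ORX, and 1167, 1013 and 1033 in ORX+DHT. Its 3 groups did not overlap. The difference between ORX+DHT and ORX was 0.29 (SE 0.08), just short of the threshold (limma adjusted p = 0.0541, and 0.0374 without ORX 3). Crat was also called with a minimum mean of 50, with robust eBayes and with replicate number as a block. Cpt2, the inner-membrane transferase, differed by -0.05 and Mlycd, which removes the malonyl-CoA that inhibits the shuttle, by 0.31 in that comparison (limma adjusted p = 0.446).

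Beta-oxidation proper was represented by 9 enzymes, and Echs1 was the one called. Echs1 (ENSMUSG00000025465, chr7:140105710-140116476, minus strand) had 219, 181 and 179 normalised counts in Control, 224, 199 and 213 in ORX, and 168, 141 and 172 in ORX+DHT. All ORX+DHT libraries lay below the other 6. Means were 193 ± 22.2, 212 ± 12.6 and 160 ± 16.8 (SD, n = 3 each). Between ORX and ORX+DHT the level fell by 0.40 on the log2 scale (SE 0.11, 95% interval -0.63 to -0.17, limma adjusted p = 0.0448). The call was lost when any 1 of the 6 libraries was left out (limma adjusted p = 0.0526 to 0.213), and with DESeq2 (adjusted p = 0.160).

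The other 8 enzymes of the beta-oxidation spiral differed by -0.02 to 0.26 between ORX+DHT and ORX, 7 of them above 0, and 0 passed. Hadh, the dehydrogenase of the following step for short chains, was the largest of them. It had 378, 281 and 317 normalised counts in Control, 241, 257 and 258 in ORX, and 315, 286 and 306 in ORX+DHT. The ORX libraries were the lowest 3 of the 9. The differences were 0.26 (SE 0.09) for ORX+DHT against ORX (limma adjusted p = 0.148) and -0.36 (SE 0.15) for ORX against Control (limma adjusted p = 0.676, and a difference of -0.24 without Control 1). The dehydrogenases Acadvl, Acadl, Acadm and Acads, for very long, long, medium and short chains, differed by 0.13 to 0.19 in ORX+DHT against ORX. The 2 subunits of the trifunctional protein, Hadha and Hadhb, differed by 0.06 and 0.10, and the thiolase Acaa2 by -0.02.

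Among the 4 auxiliary enzymes needed for unsaturated chains, 0 passed in any comparison. Their differences in ORX+DHT against ORX lay between -0.05 (Ech1) and 0.21 (Eci1). All 4 were below 0 in both comparisons with Control, apart from Decr1 in ORX+DHT at 0.0014 after quantile normalisation. Without Control 1, Eci2 lay above 0 in ORX (0.02), and Eci1 (0.18) and Eci2 (0.07) lay above 0 in ORX+DHT. Their summed level was 1125 in Control 1, 742 in Control 2 and 784 in Control 3, and 682 to 801 in the 6 other libraries, so Control 1 lay above every other library and the other controls lay among the ORX and ORX+DHT libraries. Electrons from the acyl-CoA dehydrogenases pass through Etfa, Etfb and Etfdh, which differed by -0.07, -0.04 and 0.05 in ORX+DHT against ORX. Etfb differed from Control by -0.52 in ORX and -0.56 in ORX+DHT, and by -0.05 and -0.09 without Control 1, where its level was 137 normalised counts against 48.6 and 53.6 in the other controls.

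The thioesterase Acot13, which splits acyl-CoA, had 241, 135 and 150 normalised counts in Control, 102, 99.8 and 108 in ORX, and 130, 131 and 112 in ORX+DHT. The 3 groups did not overlap, with Control highest and ORX lowest. It had the largest difference in size of the 36 in ORX against Control, at -0.71 (SE 0.21, 95% interval -1.17 to -0.25, limma adjusted p = 0.506), and -0.46 without Control 1 (limma adjusted p = 0.172). Its difference in ORX+DHT against ORX was 0.26 (limma adjusted p = 0.331).

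Ucp3, the muscle uncoupling protein of the inner mitochondrial membrane, had 368, 206 and 294 normalised counts in Control, 381, 368 and 505 in ORX, and 280, 311 and 390 in ORX+DHT. The highest control library equalled the lowest ORX library to the precision printed, and the highest ORX+DHT library lay within the ORX range. Its difference was 0.55 (SE 0.21) in ORX against Control (limma adjusted p = 0.669), and without Control 1 it passed at 0.75 (limma adjusted p = 0.0425). With DHT the difference from ORX was -0.35 (SE 0.13, limma adjusted p = 0.172), and without ORX+DHT 3 it passed (limma adjusted p = 0.0432). It also passed with replicate number as a block.

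Pdk4, the kinase induced by fasting, had 1953, 909 and 1611 normalised counts in Control, 2033, 1493 and 2529 in ORX, and 1260, 1346 and 1729 in ORX+DHT. Values varied widely within each group, and 1 ORX library lay within the ORX+DHT range. The difference between ORX+DHT and ORX was -0.46 (SE 0.14, 95% interval -0.77 to -0.16), which missed the threshold (limma adjusted p = 0.0940). It passed without ORX 2 (limma adjusted p = 0.00636), without ORX+DHT 3 (limma adjusted p = 0.0283) and with replicate number as a block. The sister kinase Pdk2 differed by -0.14 (SE 0.08) in that comparison and by 0.19 in ORX against Control (0.13 without Control 1). Ucp3 and both kinases were above 0 in ORX against Control and below 0 in ORX+DHT against ORX, and none passed in the main fits. Echs1 (0.14 and -0.40), Slc27a1 (0.39 and -0.08) and Ppard (0.07 and -0.08) had the same signs. Of the 36 genes, 29 were below 0 in the first comparison and 22 above 0 in the second. These comparisons share the ORX libraries.

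Of the 3 regulators, Ppargc1a passed. Ppargc1a (ENSMUSG00000029167, chr5:51454250-51567726, minus strand) had 42.5, 85.1 and 105 normalised counts in Control, 66.7, 78.5 and 61.2 in ORX, and 107, 106 and 98.8 in ORX+DHT. ORX+DHT lay above ORX without overlap. Control 1 lay below every ORX library, Control 2 between the ORX and ORX+DHT libraries, and Control 3 within the ORX+DHT range. Means were 77.6 ± 32.1, 68.8 ± 8.81 and 104 ± 4.69 (SD, n = 3 each). The rise with DHT was 0.60 (SE 0.13, 95% interval 0.32 to 0.88, limma adjusted p = 0.0130), or 1.51-fold. The call was lost without ORX+DHT 1 (limma adjusted p = 0.0733) and without ORX+DHT 2 (limma adjusted p = 0.0564), and with DESeq2 (adjusted p = 0.0851).

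Ppara, the PPAR most studied in liver and heart, had 2.50, 15.5 and 20.9 normalised counts in Control, 8.83, 12.8 and 4.96 in ORX, and 9.12, 19.3 and 13.8 in ORX+DHT. Its groups overlapped, and the difference of 0.64 between ORX+DHT and ORX, the largest of the 36, had an interval of -0.14 to 1.43 (limma adjusted p = 0.468), so a change was not detectable at this depth. Ppard, the PPAR prominent in muscle, had 61.2, 65.2 and 76.5 in Control, 60.9, 75.9 and 76.1 in ORX, and 69.9, 61.9 and 69.2 in ORX+DHT. It differed by -0.08 (95% interval -0.38 to 0.23) between ORX+DHT and ORX and by 0.07 between ORX and Control (-0.0013 without Control 1).

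**Figure D4:**
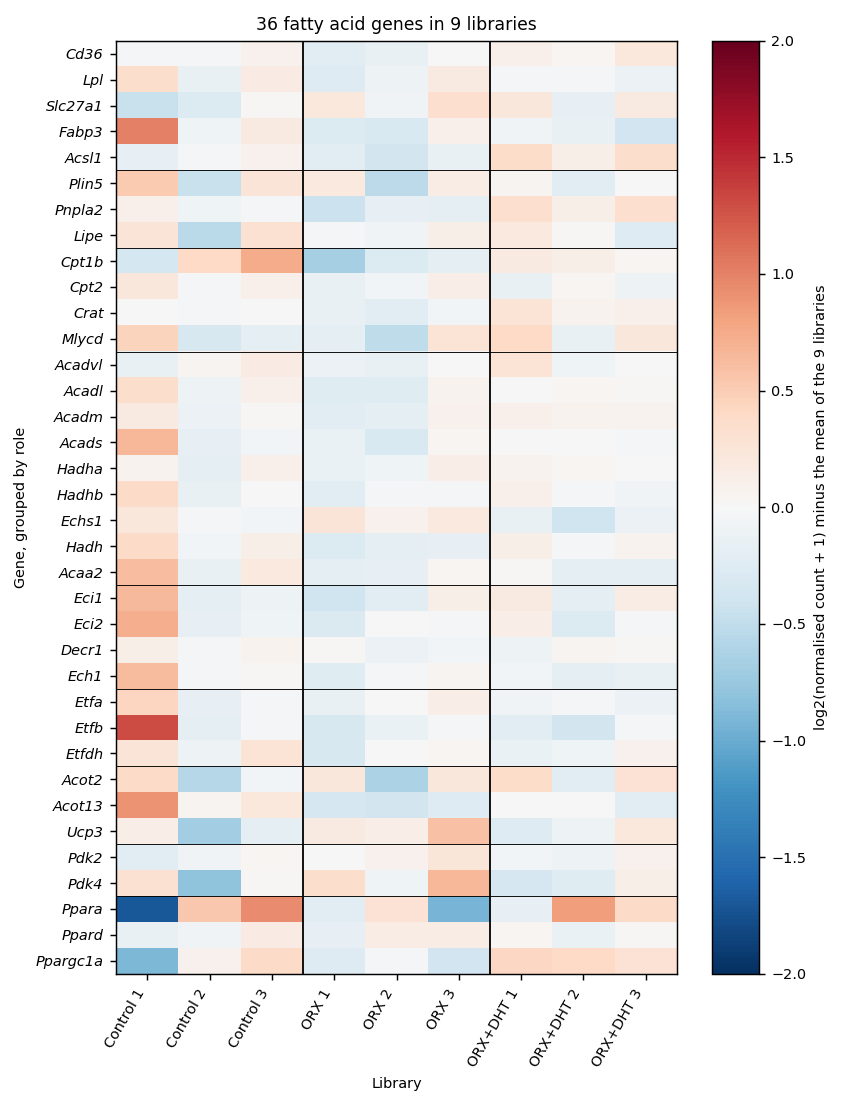
Level of the 36 genes (rows, grouped by role) in the 9 libraries (columns), as log2(normalised count + 1) minus the gene's mean over the 9 libraries. Control 1 is the highest library for 19 of the 36 genes, and the median coefficient of variation of the genes is 21.2% among the controls, 10.8% for ORX and 8.28% for ORX+DHT.

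The 250 bases before the RefSeq start are printed here for the 4 genes called in the main fit of ORX+DHT against ORX. They come from RefSeq (GRCm38.p6) and read 5′ to 3′ on the gene's strand. Acsl1 has 2 listed starts, with windows at chr8:46470787-46471036 and chr8:46490716-46490965 (plus strand). The windows of Pnpla2, Ppargc1a and Echs1 are chr7:141454938-141455187 (plus), chr5:51567726-51567975 (minus) and chr7:140116422-140116671 (minus). Capitals mark the letters AGGTCA, the half-site of many nuclear receptors, on either strand.
Acsl1, upstream start: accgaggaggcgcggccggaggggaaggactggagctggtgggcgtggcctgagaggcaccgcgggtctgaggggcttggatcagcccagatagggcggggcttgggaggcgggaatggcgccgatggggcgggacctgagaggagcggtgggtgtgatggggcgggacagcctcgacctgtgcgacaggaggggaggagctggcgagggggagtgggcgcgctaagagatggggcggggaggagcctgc
Acsl1, downstream start: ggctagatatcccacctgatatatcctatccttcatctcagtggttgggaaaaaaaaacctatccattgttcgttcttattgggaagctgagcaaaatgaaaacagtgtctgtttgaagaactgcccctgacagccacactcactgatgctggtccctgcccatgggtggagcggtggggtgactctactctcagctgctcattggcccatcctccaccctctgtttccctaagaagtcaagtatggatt
Pnpla2: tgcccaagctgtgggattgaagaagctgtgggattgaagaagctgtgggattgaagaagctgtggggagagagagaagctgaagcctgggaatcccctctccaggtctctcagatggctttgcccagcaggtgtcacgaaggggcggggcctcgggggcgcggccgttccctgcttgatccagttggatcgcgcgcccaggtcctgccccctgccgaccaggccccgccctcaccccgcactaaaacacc
Ppargc1a: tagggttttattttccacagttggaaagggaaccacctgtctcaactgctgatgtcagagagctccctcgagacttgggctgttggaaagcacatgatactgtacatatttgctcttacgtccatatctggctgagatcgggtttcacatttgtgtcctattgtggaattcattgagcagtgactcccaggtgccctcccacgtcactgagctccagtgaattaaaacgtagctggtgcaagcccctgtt
Echs1: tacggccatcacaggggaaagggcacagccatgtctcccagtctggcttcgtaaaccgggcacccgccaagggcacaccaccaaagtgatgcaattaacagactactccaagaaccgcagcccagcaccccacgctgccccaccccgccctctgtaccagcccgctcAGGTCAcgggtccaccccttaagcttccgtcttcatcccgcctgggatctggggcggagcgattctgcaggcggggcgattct
The upstream Acsl1 window is 72% G and C, those of Pnpla2 and Echs1 63.2% and 62.8%, and those of the downstream Acsl1 start and Ppargc1a 48.4% and 48%.

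RefSeq windows of 250 bases before to 50 after a start were found for 30 of the 36 genes (36 windows) and searched on both strands. The direct repeat read by PPAR with its partner RXR (AGGTCA, any 1 base, AGGTCA) was in 0 of the 36 windows and in 0.0396% of 32851 windows of all genes. The element TNAAGGTCA of oestrogen-related receptors was in 0 (1.28% of all), and the androgen response element (AGAACA, any 3 bases, TGTTCT) in 0 (0.00913% of all). Its half-site AGAACA was in 2 windows, of Hadh and Mlycd (19% of all). The half-site AGGTCA, a part of the first 2 motifs, was searched after the others; it was in 7 windows, of Acadm, Acadvl, Cd36, Echs1, Plin5 (2 starts) and Ucp3 (16.3% of all). These are matches of letters in short windows and say nothing of binding.

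Of 62 further genes of fatty acid and ketone metabolism, 56 were tested. In ORX+DHT against ORX 4 rose (background 2.38%) and 1 fell (background 1.7%), with a median difference of 0.02 over the 56. Bdh1, which interconverts the ketone bodies, had 73.7, 57.5 and 68.5 normalised counts in Control, 38.3, 37.5 and 14.1 in ORX, and 88.2, 105 and 77.1 in ORX+DHT. The 3 groups did not overlap, and it rose by 1.68 with DHT (SE 0.28, limma adjusted p = 0.0010). The next enzyme of ketone use, Oxct1, moved the other way: it fell by 0.35 (limma adjusted p = 0.0265), from 832, 920 and 936 in ORX to 640, 717 and 759 in ORX+DHT.

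Vldlr, a lipoprotein receptor, rose by 0.56 (limma adjusted p = 0.000638), from 463, 436 and 409 normalised counts in ORX to 617, 612 and 704 in ORX+DHT. Perm1, a muscle regulator induced by PGC-1alpha, rose by 0.43 (limma adjusted p = 0.00674), from 505, 532 and 505 to 750, 616 and 724. Lpin1, a phosphatidate phosphatase and coactivator, rose by 0.35 (limma adjusted p = 0.0389), from 608, 574 and 712 to 859, 774 and 767. Bdh1 and Vldlr held their call when each of the 6 libraries was left out. With all 9 libraries in 1 limma fit Bdh1 was the 1 gene of the 56 called, and the calls of Vldlr, Perm1, Oxct1 and Lpin1 were lost (limma adjusted p = 0.139 to 0.414). Bdh1 missed the threshold with robust eBayes (limma adjusted p = 0.111). Lpin1 was also lost with quantile normalisation (limma adjusted p = 0.109), edgeR (adjusted p = 0.0528) and DESeq2 (adjusted p = 0.113). The call of Lpin1 held without ORX 3 and was lost without each of the other 5 libraries (limma adjusted p = 0.0625 to 0.221). That of Oxct1 was lost without ORX 2, ORX 3, ORX+DHT 1 or ORX+DHT 2 (limma adjusted p = 0.0693 to 0.174), and that of Perm1 without ORX+DHT 1 (limma adjusted p = 0.0640). In the comparisons with Control 0 of the 56 passed with limma, edgeR or DESeq2. At an unadjusted p under 0.05 limma had 8 in ORX (background 7.21%) and 5 in ORX+DHT (background 6.48%). Without Control 1, Perm1 was lower in ORX than in Control (limma adjusted p = 0.0258).

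Of 18 general mitochondrial genes, mostly of the citrate cycle and the respiratory chain, 0 passed in any comparison with limma, edgeR or DESeq2. At an unadjusted p under 0.05 limma had 2 for ORX (background 7.21%) and 0 for ORX+DHT (background 6.48%), each against Control. In ORX+DHT against ORX 16 were above 0, and the median was 0.12. Over all genes 4459 of 8770 were above 0, with a median of 0.01. Groups did not overlap for 7 of the 18, all higher in ORX+DHT (background 10.4%). At an unadjusted p under 0.05 were 6 of the 18 with limma (background 14.3% of genes), 4 with edgeR and 2 with DESeq2. Their summed level was 27002, 29427 and 30156 normalised counts in ORX and 30968, 30262 and 32042 in ORX+DHT, without overlap, and 36774, 30741 and 31541 in Control.

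Several of the 36 genes are also active in other cells of muscle tissue. Adipocyte markers were low. The 9 of 10 in both tables summed to 33.2 to 77.4 normalised counts among the controls. In ORX they summed to 57.1 to 78.6, and in ORX+DHT to 48.6 to 89.9. The 2 that were tested, Cfd and Thrsp, moved in opposite directions. Cfd differed by 1.19 in ORX against Control and by -0.60 in ORX+DHT against ORX, and Thrsp by -0.48 and 0.52. Neither passed, but Cfd was called in ORX against Control without Control 1. Adipoq lay between 0 and 12.4, and Lep was at 0 in all controls and in 1 ORX and 2 ORX+DHT libraries. Endothelial markers (10 of 10, 0 called) summed to 1130 to 1238, 1150 to 1300 and 1308 to 1414, highest in ORX+DHT without overlap. Singly, 8 were above 0 and 2 below in ORX+DHT against ORX. The largest difference in size was a fall, of Cldn5 at -0.90 (limma adjusted p = 0.280). Cd36 is known to be abundant in those cells. Fibroblast markers summed to 2005 to 4166, 4570 to 5940 and 2455 to 3413. With DHT 4 of 8 (Col1a1, Col1a2, Lum and Postn) fell (background 1.7%). Macrophage markers summed to 68.6 to 119, 79.3 to 162 and 117 to 158, and red blood cell markers to 146 to 248, 87.8 to 252 and 184 to 211.

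Oxidative fibres carry more of this machinery than glycolytic ones. Slow fibre markers summed to 247 to 371 normalised counts among the controls, 323 to 360 for ORX and 199 to 285 for ORX+DHT. Of the 4 tested Myl3 fell with DHT, a call lost without ORX 2, without ORX+DHT 3 and with all 9 libraries in 1 fit. Myh2, the myosin of fast oxidative fibres, lay between 1676 and 5430, 2372 and 4487, and 1856 and 3681, with overlap throughout. Of 10 tested fast fibre genes Acta1, Myh1 and Tnni2 rose with DHT (background 2.38%). Without ORX 2 Myh1 alone of the 10 was called, without ORX+DHT 3 Acta1 and Myh1 were, and with all 9 libraries in 1 limma fit 0 were (2 at an unadjusted p under 0.05). In the main fit 6 of the 10 were above 0 and 4 below. After quantile normalisation Myh1 was not called, while Acta1, Tnni2, Actn3, Atp2a1 and Pvalb were. Of these, Actn3, Atp2a1 and Pvalb were below 0 in the main fit, at -0.16, -0.08 and -0.28. The part of these markers in the differences of the 36 genes was not tested.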

How the data were processed

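RNA of 9 tibialis anterior libraries (3 Control, 3 ORX, 3 ORX+DHT) was polyA-selected and made into strand-keeping libraries, per the labels' protocols. The submitters' processing notes name Trim Galore 0.6.7, HISAT2 2.2.1, featureCounts 2.0.1, DESeq2 1.36.0 and the build GRCm38. The gene annotation is not given in the sources used here. The authors deposited 2 tables of normalised counts, a signal made by dividing the reads of a library by its own factor. Dividing each column by its smallest step gave whole reads (within 0.01) for 100% of values. For 1 control library the step is close to 1. Sham columns were taken as Control, the group without orchiectomy, and 0 columns were left unmapped. The ORX columns of the tables were proportional (ratio 1.06 each).

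ORX was compared with Control, and ORX+DHT with ORX, within their own tables. ORX+DHT was compared with Control over the 14300 shared genes after joint median-of-ratios rescaling, the scale of the printed values, which sets levels across tables that were normalised separately. limma 3.58.1 in R 4.3.3 (lmFit, eBayes with trend, two-sided) was fitted to log2(value + 1) over all genes with a mean of at least 10, with Benjamini-Hochberg adjustment over all of them. Genes under an adjusted p of 0.05 were called. Differences are log2 fold changes on this scale, which understates low genes. The script was tested on simulated data. No 2 replicates agreed within sampling noise (chi-square per degree of freedom 1.82 or more).

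Members and lists were chosen with earlier results of these data known. Values in every library are given for members called in any comparison, members without overlap and with a log2 difference of at least 0.5 in size, and Cd36, Lpl, Cpt1b, Pdk4, Ucp3, Ppara, Ppard and Ppargc1a. Crat, Hadh and Fabp3 were added after their values were seen. Called genes of the wider list are named. Transcript length is that of the longest principal coding transcript in GENCODE M21 (GRCm38). Alternatives were TMM scaling, quantile normalisation, pseudocounts of 0.1 and 10, no filter, a minimum mean of 50, robust eBayes, a joint fit of the 9 libraries, a replicate block, leaving out each library, and edgeR 4.0.16 and DESeq2 1.42.0 on the recovered reads.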

Additional observations from a re-analysis of the deposited data

How the results depend on the processing

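In ORX+DHT against ORX, 4 of the 36 genes were called. The count was 0 with all 9 libraries in 1 fit (5 at an unadjusted p under 0.05), 2 with DESeq2 and 2 to 5 with 1 library left out. Acsl1 and Pnpla2 passed in 16 of 17 alternatives each, missing with all 9 libraries in 1 fit (limma adjusted p = 0.0550 for both). Ppargc1a passed in 13 and Echs1 in 8. In ORX against Control the count of the 36 was 0 to 1 with 1 library left out, and in ORX+DHT against Control it was 0 in all alternatives run. Over all genes, ORX against Control called 5, and 16 with no filter, 23 with all 9 libraries in 1 fit, 28 with DESeq2 and 1 to 51 with 1 library left out. ORX+DHT against ORX called 358, and 123 with all 9 libraries, 221 with DESeq2 and 223 to 350 with 1 library left out. ORX+DHT against Control called 3, and 6 with quantile normalisation, 21 with no filter, 11 with all 9 libraries, 13 with DESeq2 and 0 to 66 with 1 library left out; the count was 66 without Control 1 and 0 without ORX+DHT 3. Quantile normalisation moved the split of higher and lower calls from 1 and 4 to 2 and 4 in ORX against Control and from 1 and 2 to 4 and 2 in ORX+DHT against Control. In ORX+DHT against ORX it moved from 209 and 149 to 161 and 166. The cause of these differences was not tested.

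Replicate numbers are shared between groups. Deviations of same-numbered libraries correlated at -0.16 to 0.15 across genes, over 0.1 in 1 of 9 pairs. Between ORX and ORX+DHT the same-numbered pairs had 0.06, 0.06 and 0.15, and the other pairs lay between -0.09 and 0.02. These values do not settle whether the numbers pair the samples, and the main fits do not use the numbers. With the replicate block 8 of the 36 genes (5 higher, 3 lower) and 571 of all genes were called in ORX+DHT against ORX. Acsl1, Cd36, Crat, Pnpla2 and Ppargc1a were higher, and Echs1, Pdk4 and Ucp3 lower.

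Low read numbers limit Ppara and Cpt1b most, with 2 and 7 reads in their lowest library. With 3 libraries a group and 1 control standing apart, differences from Control carry wider intervals than those between ORX+DHT and ORX.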
